A study of Rattus norvegicus with 15 samples.

Results

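Aldehyde dehydrogenases oxidise reactive aldehydes to carboxylic acids, and 9 genes of this family formed the set examined here: Aldh1a1, Aldh1a7, Aldh1b1, Aldh2, Aldh3a2, Aldh4a1, Aldh6a1, Aldh7a1 and Aldh9a1. Its members were all probe sets whose array annotation names one of these genes and no other, which gave 9 of the 31099 probe sets of the deposited table, for 8 genes. Aldh6a1 had 2 probe sets and each of the other measured genes had 1, and Aldh1a7 had none under this rule and is not analysed here. Whether the Aldh1a1 probe set also reads RNA of closely similar family members such as Aldh1a7 was not tested, so its values below may include them. The genes were chosen by the diet differences measured on these same arrays, led by the high Aldh1a1 level with genistein. The values below are therefore a description: the adjusted p of a member says where it stood in a fit over all probe sets and is not independent evidence.

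The livers came from male Sprague-Dawley rats that entered the experiment at 4 weeks of age and ate their diet for 14 days after adapting for 5 days. The 3 diets were an isoflavone-free control, the same base with 2 g/kg genistein, and the same base with 2 g/kg daidzein, with 5 arrays per diet, labelled as biological replicates. In all of them the protein was casein (200 g/kg) and the fat palm oil (100 g/kg). Both compounds are isoflavones found in soy, with the same skeleton, and genistein carries an additional hydroxyl group. Total liver RNA was hybridised to 1-channel Affymetrix rat expression arrays, and the study asked how the isoflavones compare in their effects on liver lipid metabolism. Arrays are named by diet and by the replicate number of their titles. Levels are in log2 units with an arbitrary zero, so a level can be compared between arrays for 1 probe set but not between probe sets, and a difference of 1 is a doubling.

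Hepatocytes express many aldehyde dehydrogenases, which differ in compartment and substrate. Aldh1a1 is a cytosolic enzyme that converts retinal to retinoic acid, the ligand of the retinoic acid receptors, and also oxidises aldehydes of lipid peroxidation. Aldh1b1 and Aldh2 are mitochondrial and act on acetaldehyde, with Aldh2 the main enzyme of ethanol breakdown at this step. Aldh3a2 is the microsomal fatty aldehyde dehydrogenase, and the other members close steps of proline (Aldh4a1), valine (Aldh6a1) and lysine (Aldh7a1) breakdown and of carnitine synthesis (Aldh9a1).

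The sequences just upstream of the start of Aldh1a1 and Aldh1b1 are given because these were the members whose 5 arrays on an isoflavone diet all lay on 1 side of the control arrays. They are the 250 bases before the start site in the RefSeq annotation of build GRCr8, of which Aldh1a1 lies on the plus strand (chr1:227537370-227537619) and Aldh1b1 likewise (chr5:64858750-64858999). Capitals mark the letters CCAAT or their complement ATTGG, read on both strands.
Aldh1a1: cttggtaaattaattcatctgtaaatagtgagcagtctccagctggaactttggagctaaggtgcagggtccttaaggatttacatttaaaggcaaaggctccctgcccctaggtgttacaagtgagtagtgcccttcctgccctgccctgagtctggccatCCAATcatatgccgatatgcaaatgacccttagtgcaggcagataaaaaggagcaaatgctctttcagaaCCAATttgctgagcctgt
Aldh1b1: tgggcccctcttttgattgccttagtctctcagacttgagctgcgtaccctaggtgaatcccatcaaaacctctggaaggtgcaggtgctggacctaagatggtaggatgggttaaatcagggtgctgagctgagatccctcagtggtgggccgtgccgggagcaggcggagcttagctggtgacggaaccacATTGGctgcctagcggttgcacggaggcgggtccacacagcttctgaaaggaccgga
Windows were found for 7 of the 9 genes. CCAAT, the core of the box bound by the factor NF-Y, occurred in 6 of these 7 windows and in 34% of 33469 windows of the same length. The Aldh1a1 window held it 2 times on the plus strand, 88 and 18 bases before the start counted from the first letter of the match, and the Aldh1b1 window once on the minus strand, 57 bases before the start. Of 4 other motifs searched on both strands, neither printed window held TATAAA (12.9% of all windows), the nuclear receptor half-site AGGTCA (14.1%), the antioxidant response core TGACNNNGC (10.1%) or the Ah receptor core GCGTG (25.9%). The Aldh1a1 window had a GC content of 46.4% and 1 CpG, and that of Aldh1b1 57.6% and 9, against medians of 51.2% and 5 over all windows. A match is a description of letters, not a site.

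The arrays resembled each other closely, with Pearson correlations of 0.931 to 0.969 across the 18625 probe sets tested. All 9 measured hepatocyte markers of 10 listed lay above the level used as a filter, with a mean level of 7.91 to 8.06 in control, 7.85 to 7.97 in daidzein and 7.82 to 7.97 in genistein arrays. Daidzein 5 stood apart in carrying RNA of exocrine pancreas genes: trypsinogen Prss1 stood at 7.59 there and between -1.53 and 0.47 in the other 14 arrays, Amy2a3 at 7.15 against at most 0.48, and Cpa1 at 5.91 against at most 0.52. The main daidzein differences of the members, and those of some other genes, are therefore also given without that array. For the rest, among them Gsta3 and Dmgdh below, they are given with it alone. In liver RNA, fewer cells of a type and less RNA per cell cannot be told apart. Precision is limited by the number of arrays.

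With genistein, Aldh1a1 rose and no other member was called. Aldh1a1 (Entrez gene 24188) stood at 1.92, 3.46, 2.35, 2.43 and 2.91 in control 1 to 5 and at 4.24, 4.93, 4.75, 3.48 and 4.29 in genistein 1 to 5. The lowest genistein array lay just above the highest control array, so the groups did not overlap but nearly touched, at genistein 4 and control 2. The means were 4.34 ± 0.56 and 2.61 ± 0.59 (SD, n = 5), a 3.30-fold difference (log2 difference 1.72 ± 0.30 SE, 95% confidence interval 1.09 to 2.36, limma adjusted p = 0.0261 by Benjamini-Hochberg over 18625 probe sets). By absolute size it ranked 41 of 18625, and by p 27. This was 1 of 9 member probe sets called, where 0.322% of all probe sets were called, 0.15% higher and 0.172% lower. At an unadjusted p under 0.05 it was also 1 of 9, against 11% of all. Since Aldh1a1 led the proposal of the set, nothing is read from that count. Likewise 1 of 9 had genistein arrays above every control array, against 1.21% of all probe sets, and 0 of 9 lay below, against 1.35%.

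The size of the Aldh1a1 difference was steadier than its call. It lay between 1.56 and 1.94 in all 15 fits that left out 1 array, and the call was kept in 9 of them. Those 9 include every fit without a daidzein array, and daidzein arrays are not part of this comparison. Of the 10 arrays compared, just control 2, control 5, genistein 4 or genistein 5 could be left out with the call kept, so most such omissions ended the call. The call was lost without control 1 (limma adjusted p = 0.0822), control 3 (0.0829), control 4 (0.0787), genistein 1 (0.0595), genistein 2 (0.0909) or genistein 3 (0.0897). It was also lost without the filter on low values (limma adjusted p = 0.0642), when replicate number entered the fit as a block (0.0706) and when the fit held just the 10 arrays compared (0.123).

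**Figure D1:**
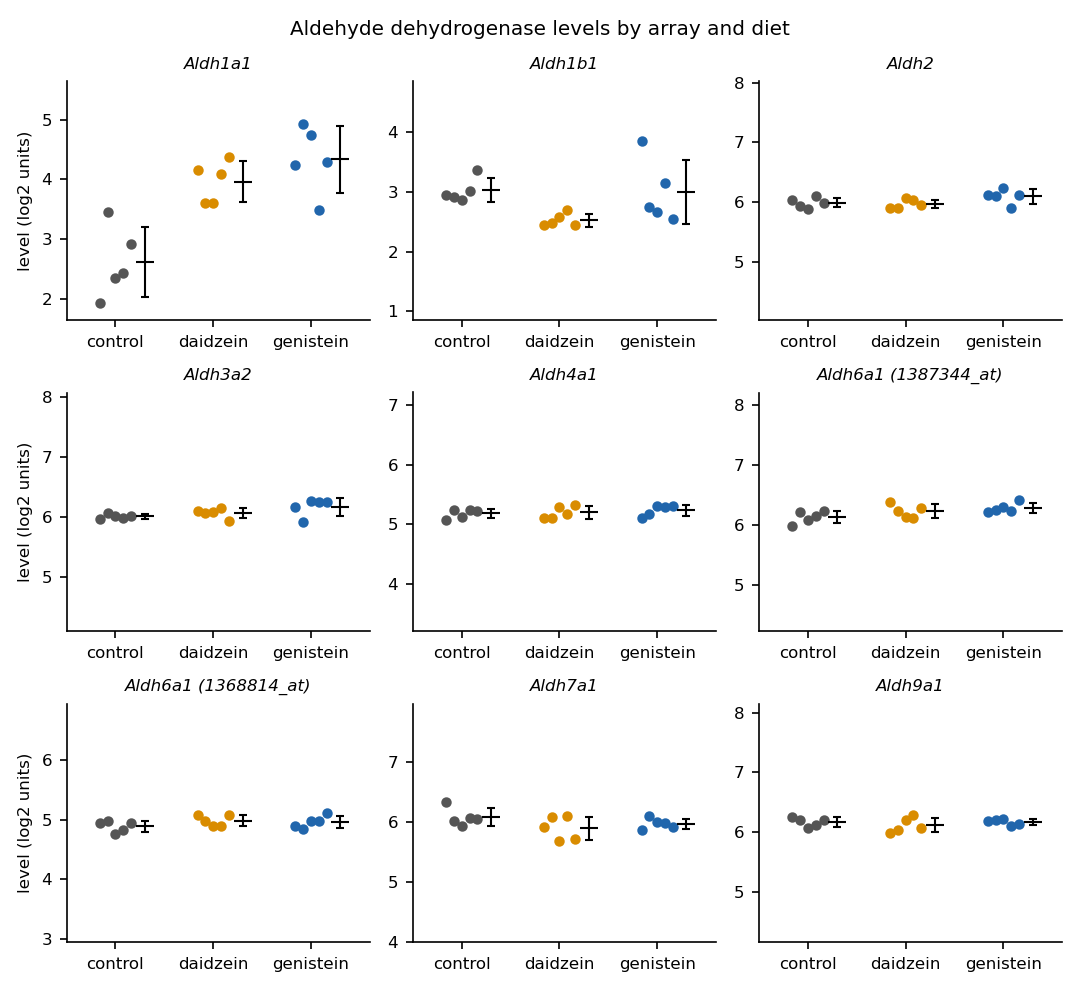
Level of each member probe set (y axis, log2 units with an arbitrary zero, each panel spanning 4 units) by diet (x axis); points are the 5 arrays in order of replicate number, and bars give the mean and SD. Aldh1a1 is high on both isoflavone diets, Aldh1b1 low on daidzein, and the other panels are nearly flat.

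With daidzein, Aldh1a1 stood at 4.15, 3.61, 3.60, 4.09 and 4.37 in arrays 1 to 5, all above the highest control array. The mean of 3.96 ± 0.34 (SD, n = 5) was 2.55-fold that of the controls (log2 difference 1.35 ± 0.30 SE, interval 0.71 to 1.98), which was not called (limma adjusted p = 0.238). Without daidzein 5 the difference was 1.25 (adjusted p = 0.389). Over 24 settings of the fit the log2 difference lay between 1.18 and 1.56 and the adjusted p between 0.146 and 0.554. None of the 9 member probe sets was called in this comparison by limma, where 0.0161% of all probe sets were. At an unadjusted p under 0.05 there were 2 of 9, against 8.25% of all. Daidzein levels clear of the control range on the high side were found for 1 of 9, that of Aldh1a1, against 0.94% of all probe sets. The members were chosen by diet differences on these same arrays, so nothing is read from that count.

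Aldh1b1 was the member with the other separation. It stood at 2.95, 2.92, 2.87, 3.02 and 3.37 in control 1 to 5 and at 2.44, 2.48, 2.58, 2.69 and 2.44 in daidzein 1 to 5, so every daidzein array lay below every control array. The means were 3.03 ± 0.20 and 2.53 ± 0.11 (SD, n = 5), with a log2 difference of -0.50 ± 0.20 SE (interval -0.93 to -0.08), not called (limma adjusted p = 0.542). Without daidzein 5 it was -0.48 (adjusted p = 0.649). Arrays that did not overlap on the low side were found in 1 of 9 member probe sets and in 0.94% of all. The genistein arrays were spread more widely, at 3.86, 2.75, 2.66, 3.15 and 2.54, and spanned the controls, with genistein 1 the highest of all 15 arrays (log2 difference from control -0.03, interval -0.46 to 0.39).

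The remaining 6 genes were nearly flat across the diets. Aldh2 stood at 5.99 ± 0.08 in control, 5.97 ± 0.07 in daidzein and 6.10 ± 0.12 in genistein arrays (SD, n = 5 each), and its ranges of 5.89 to 6.10, 5.91 to 6.06 and 5.90 to 6.24 overlapped. The interval of its log2 difference from control was -0.05 to 0.26 with genistein and -0.18 to 0.14 with daidzein. Aldh3a2, the fatty aldehyde enzyme, had means of 6.01 ± 0.04, 6.07 ± 0.09 and 6.17 ± 0.15 in the same order (SD, n = 5). Its log2 difference with genistein was 0.16 (interval -0.00 to 0.32, limma adjusted p = 0.474), and 4 of the 5 genistein arrays lay above the highest control array of 6.07 while genistein 2 (5.91) lay below the lowest.

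Among the members of amino acid breakdown, Aldh6a1, of the valine pathway, was read by 2 probe sets, both nearly flat across the diets. On the first it stood at 6.13 ± 0.10 in control, 6.23 ± 0.11 in daidzein and 6.28 ± 0.08 in genistein arrays, and on the second at 4.89 ± 0.09, 4.98 ± 0.09 and 4.96 ± 0.10 (SD, n = 5 each). Aldh4a1, of proline breakdown, had a range of 5.08 to 5.25 in control, 5.10 to 5.33 in daidzein and 5.11 to 5.31 in genistein arrays. Its log2 differences from control were 0.06 with genistein (interval -0.10 to 0.21) and 0.02 with daidzein (-0.14 to 0.17). Aldh7a1, of lysine breakdown, stood at 6.08 ± 0.15 in control, 5.90 ± 0.19 in daidzein and 5.98 ± 0.09 in genistein arrays, with a log2 difference of -0.18 for daidzein (interval -0.40 to 0.03, limma adjusted p = 0.654), or -0.14 without daidzein 5. Aldh9a1, of carnitine synthesis, stood at 6.17 ± 0.08, 6.12 ± 0.12 and 6.17 ± 0.05, with log2 differences of -0.00 (interval -0.15 to 0.15) for genistein and -0.05 (-0.20 to 0.10) for daidzein. In each of these genes the arrays of the 3 diets overlapped.

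Taking the 9 probe sets as a list, the median log2 difference was 0.07 with genistein and 0.02 with daidzein against control, where the medians over all 18625 probe sets were -0.00 and 0.00. With genistein 6 were higher and 3 lower, and 8 of 9 lay within 0.25 of zero, as did 79.9% of all probe sets. With daidzein 5 were higher and 4 lower, with 7 of 9 within 0.25, against 82.4% of all. Both comparisons share the control arrays.

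**Figure D2:**
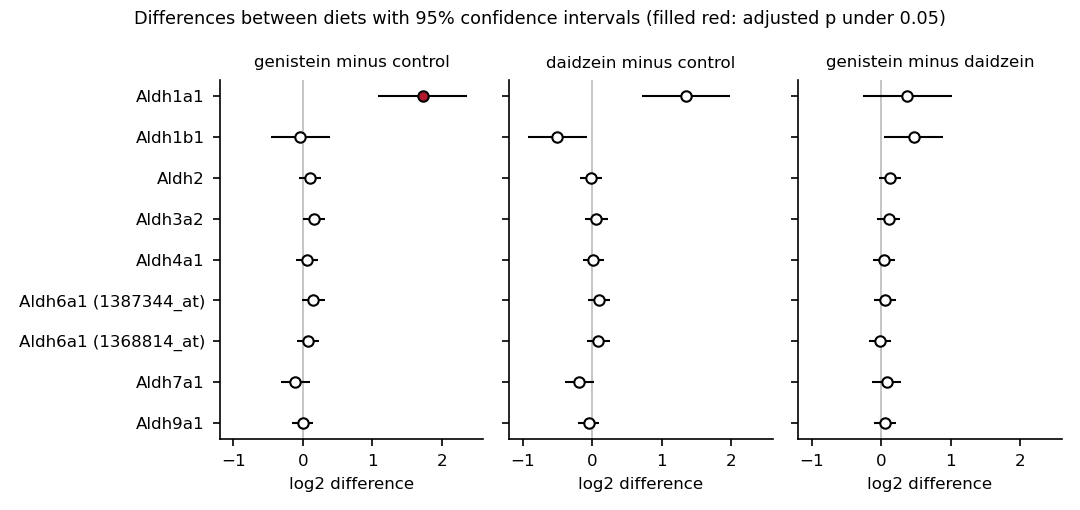
Log2 difference (x axis) of each member probe set (y axis) in the 3 comparisons, with 95% confidence intervals from limma and a filled red point where the adjusted p was under 0.05. The filled point is Aldh1a1 in genistein minus control at 1.72, and the intervals of Aldh1a1 and Aldh1b1 are wider than those of the other members.

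The isoflavones were compared directly at the same dose of 2 g/kg and the same 14 days. None of the 9 member probe sets was called between them by limma, where 0.113% of all probe sets were, 0.0322% higher and 0.0805% lower with genistein, and 1 of 9 had an unadjusted p under 0.05, against 9.37% of all. Arrays of the isoflavones overlapped in all 9, where 0.966% of all probe sets had genistein arrays all higher and 1.06% all lower. Aldh1a1 was 1.30-fold higher with genistein than with daidzein, and the interval of this ratio was 0.84 to 2.01 (log2 difference 0.38 ± 0.30 SE, limma adjusted p = 0.773), so the arrays do not fix which isoflavone gave the higher level. A total of 4 of the 5 genistein arrays lay above the daidzein mean, and the arrays overlapped. Without daidzein 5 the log2 difference of Aldh1a1 was 0.48 (limma adjusted p = 0.707), without genistein 2 it was 0.23 (0.904) and without genistein 4 it was 0.59 (0.452). Aldh1b1 was 1.38-fold higher with genistein (interval 1.03 to 1.86, limma adjusted p = 0.481), and all 5 genistein arrays lay above the daidzein mean. Its log2 difference was 0.44 without daidzein 5 (limma adjusted p = 0.565). Without genistein 1 the log2 difference of Aldh1b1 was 0.25 in place of 0.47, and its difference from control went from -0.03 to -0.25 (limma adjusted p = 0.515). For the other 7 probe sets the log2 differences lay between -0.02 and 0.13, and their intervals reached at most 0.29 in either direction.

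The order of the diets by Aldh1a1 level was control, daidzein, genistein. Control and daidzein did not overlap, whereas daidzein and genistein overlapped over most of their ranges, from 3.60 to 4.37 against 3.48 to 4.93. Genistein 4, at 3.48, lay below all 5 daidzein arrays, and control 2, at 3.46, stood within reach of it.

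Members also differed in how much they varied between rats of 1 diet. The residual SD of Aldh1a1 was 0.51 log2 units, above that of 92.2% of all tested probe sets, whose median was 0.22. That of Aldh1b1 was 0.34. In the other 7 probe sets it lay between 0.09 and 0.15, so a difference of the size seen in Aldh1b1 would have exceeded the spread in these. Levels with the diet means removed were related loosely among the members: over 36 pairs of probe sets the Pearson r across the 15 arrays had a median of 0.06 and ran from -0.52 to 0.68, with the highest value for the Aldh6a1 pair. Aldh2 and Aldh9a1 had 0.60. With Aldh1a1, the r was 0.52 for the first Aldh6a1 probe set but 0.17 for the second, and between -0.23 and 0.23 for the other members. These correlations are descriptions over arrays that share a normalization.

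The genes with the pattern most like Aldh1a1 were sought among all represented genes outside the set, by Pearson r over the 15 arrays. They were Sh3d19, an SH3 domain adaptor (r = 0.921), Rnh1, the ribonuclease inhibitor (0.888), Prpf19, a splicing ubiquitin ligase (0.880), Fmo5, a flavin monooxygenase (0.871), and Acsl4, an acyl-CoA synthetase of polyunsaturated fatty acids (0.859). Their log2 differences with genistein were 0.41, 0.34, 0.14, 2.77 and 0.81 in this order, and with daidzein 0.29, 0.20, 0.17, 1.68 and 0.41. Of these, Fmo5 was called with genistein (limma adjusted p = 0.0198), where 0.335% of all genes were, and Acsl4 was just short of it (0.0501). None was called with daidzein, where 0.0279% of all genes were. The r over the 15 arrays includes the diet differences, so the pick favoured genes that differ by diet as Aldh1a1 does. Nothing is therefore read from their differences or the call. With the diet means removed, the highest r were those of Prpf19 (0.897), Rnf123, a ubiquitin ligase (0.887), Gsta3, a glutathione S-transferase (0.885), Prxl2a, a peroxiredoxin-like protein (0.875), and Tbc1d13, a Rab regulator (0.871). A high r was the ground on which these genes were picked, so their likeness to Aldh1a1 within a diet is no further result. Gsta3 differed by diet in another order than Aldh1a1. Its log2 difference was 1.72 with genistein (limma adjusted p = 0.0745) and 3.44 with daidzein (adjusted p = 0.00186), the latter called. Its control mean of -0.79 lay below the filter level of -0.30.

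**Figure D3:**
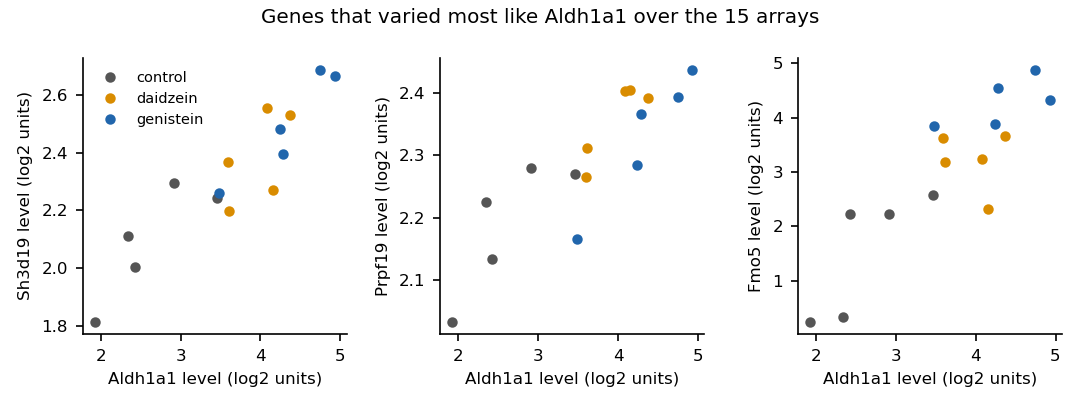
Levels of Sh3d19, Prpf19 and Fmo5 (y axes, log2 units) against that of Aldh1a1 (x axes, log2 units) in the 15 arrays, coloured by diet. Control 1 has the lowest Aldh1a1 level, at 1.92, and the lowest point in all 3 panels.

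Marker lists of other cells were set beside Aldh1a1. The mean level of 5 measured lymphocyte markers of 6 listed, of which Cd3d lay below the filter level, ran from -0.33 to 0.16 in control, from -0.52 to -0.08 in daidzein and from -0.50 to -0.21 in genistein arrays, and the hepatocyte mean was also lower with genistein (7.97 in control and 7.87 in genistein arrays). Their r with Aldh1a1 over the 15 arrays was -0.72 and -0.73, the lowest of the 11 marker lists, whose highest was 0.18 for endothelial cells. The part of these in the Aldh1a1 difference was not tested. The stellate cell list, whose cells store retinoids, had 8 of 9 measured genes above the filter level, with Lum below it, and a mean of 1.32 to 1.65 in control, 1.10 to 1.39 in daidzein and 1.38 to 1.48 in genistein arrays.

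The rest of the family did not show the pattern of Aldh1a1. Of 12 other aldehyde dehydrogenases listed, 9 had a probe set of their own and 7 were tested; Aldh3a1 and Aldh3b1 lay below the filter level. None of the 7 was called in any comparison by limma, where 0.335% of all genes were called with genistein, 0.0279% with daidzein and 0.14% between the isoflavones. At an unadjusted p under 0.05 there were 0, 1 and 1 of 7 in the same order, against 11.6%, 8.54% and 9.87% of all genes. Their median log2 difference was -0.01 with genistein and -0.04 with daidzein, against -0.00 for all 10745 genes in both. The other retinal dehydrogenases, Aldh1a2 and Aldh1a3, had log2 differences of -0.11 (interval -0.42 to 0.19) and -0.01 (-0.24 to 0.22) with genistein. Aldh1a2 was weakly measured, with a control mean of 0.11 not far above the filter level of -0.30. Aldh1l1, the 10-formyltetrahydrofolate dehydrogenase, stood at 5.14 ± 0.22 in control and 5.56 ± 0.17 in daidzein arrays (SD, n = 5), with a log2 difference of 0.42 (interval 0.16 to 0.68) that was not called (limma adjusted p = 0.382), and of 0.38 without daidzein 5. Aldh18a1, which makes the proline precursor, and Aldh16a1 had -0.32 and -0.12 with daidzein, neither of them called. Aldh5a1, of GABA breakdown, had -0.19 between the isoflavones on its brightest probe set and -0.04 and 0.29 on its others, none of them called.

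Genes that make, store or sense retinoids gave no call in the reported fit. Of 37 listed, 27 were tested, and limma called 0 in each comparison, beside the shares of all genes just given. At an unadjusted p under 0.05 there were 5 with genistein, 2 with daidzein and 5 between them, or 18.5%, 7.41% and 18.5% of the list against 11.6%, 8.54% and 9.87% of all genes. The median log2 difference was 0.05 with genistein and 0.01 with daidzein, beside -0.00 over all genes. Rdh16, a retinol dehydrogenase upstream of the retinal step, stood at 2.99 ± 0.65 in control, 3.14 ± 0.26 in daidzein and 1.22 ± 1.10 in genistein arrays (SD, n = 5), with genistein 2 at -0.17 and genistein 4 at 2.54. Its log2 difference with genistein was -1.77 (interval -2.70 to -0.84) and was not called (limma adjusted p = 0.105), although it was without genistein 4 (adjusted p = 0.0204, log2 difference -2.11). Between the isoflavones it was -1.92 (limma adjusted p = 0.101; -1.96 without daidzein 5), and it was called without genistein 4 (-2.26, adjusted p = 0.0206) and with array weights (-2.16, adjusted p = 0.0475). In the other 14 fits that left out 1 array, Rdh16 was uncalled in both comparisons. The limma adjusted p there was 0.0588 to 0.261 with genistein and 0.0933 to 0.252 between the isoflavones. Without genistein 4 the calls over all probe sets also rose, from 60 to 203 with genistein and from 21 to 136 between the isoflavones. Dhrs4, a carbonyl reductase that acts on retinal, had genistein arrays of 4.00 to 4.17, all below the control range of 4.35 to 4.61 (log2 difference -0.35, limma adjusted p = 0.0656). It was called in 4 of 24 settings, with the 60th percentile filter (limma adjusted p = 0.0303), 16 added to the intensities (0.0443), array weights (0.0325) and without genistein 4 (0.04997). Between the isoflavones the Dhrs4 arrays did not overlap either (log2 difference -0.29, limma adjusted p = 0.145, or -0.32 without daidzein 5). Rdh5, a retinol dehydrogenase, had a log2 difference of -0.53 with genistein against control (limma adjusted p = 0.198). Between the isoflavones it had -0.71 (limma adjusted p = 0.0941), or -0.80 without daidzein 5, also uncalled. Adh4, an alcohol dehydrogenase that oxidises retinol, had log2 differences of 0.83 with genistein (interval 0.32 to 1.35, limma adjusted p = 0.178) and 0.78 with daidzein (0.27 to 1.30, adjusted p = 0.388; 0.61 without daidzein 5).

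Enzymes that make or remove aldehydes and alcohols outside the family included 13 tested genes of 18 listed. With genistein limma called 1 higher, where 0.158% of genes were, namely Adh5, the dehydrogenase that clears formaldehyde as its glutathione adduct. It stood at 4.47, 4.56, 4.56, 4.75 and 4.82 in control 1 to 5 and at 5.12, 5.20, 5.47, 5.02 and 5.32 in genistein 1 to 5, with no overlap. The log2 difference was 0.59 ± 0.10 SE (interval 0.39 to 0.80, limma adjusted p = 0.0198). Leaving out 1 array ended the call for control 1 (limma adjusted p = 0.0682), control 2 (0.0541), control 3 (0.0756), genistein 2 (0.0669) or genistein 3 (0.0553), with a log2 difference of at least 0.53 in all such fits. Median centring (limma adjusted p = 0.310), no filter on low values (0.0641) and a fit of just the 10 arrays compared (0.105) ended it too. With daidzein the Adh5 arrays, from 4.88 to 5.10, also lay above all controls, without a call (log2 difference 0.37, limma adjusted p = 0.346; 0.35 without daidzein 5). With daidzein 1 of 13 was called, where 0.0279% of genes were, namely Akr7a3, the aflatoxin aldehyde reductase (log2 difference 2.14, limma adjusted p = 2.43e-05), which had -0.08 with genistein. It was 2.15 without daidzein 5, and -2.21 between the isoflavones (limma adjusted p = 1.52e-05), the 1 of 13 called lower there, against 0.112% of genes. Cyp2e1, the ethanol-oxidising P450, had 0.35 between them (interval 0.06 to 0.63), uncalled. The list medians were -0.01 with genistein and 0.08 with daidzein.

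**Figure D4:**
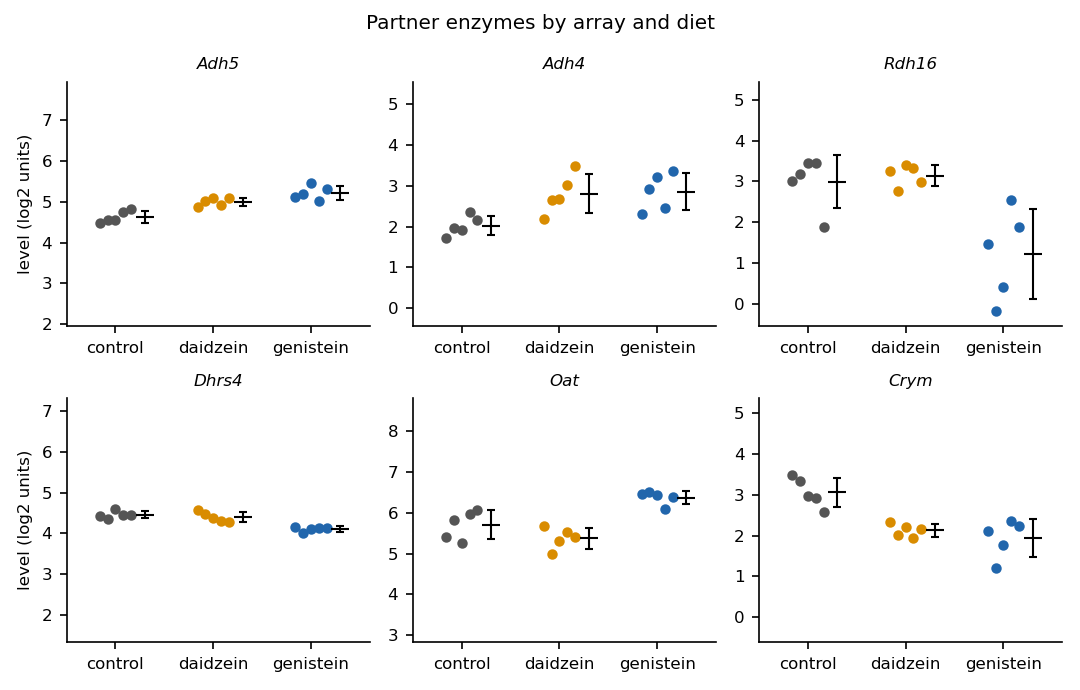
Levels (y axis, log2 units, 6 units per panel) of 6 enzymes outside the set by diet (x axis); points are arrays, and bars give the mean and SD (n = 5). Adh5 and Adh4 are higher on both isoflavone diets, Crym is lower on both, and Rdh16 and Dhrs4 are lower with genistein, where of these Adh5 and Crym were called.

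The enzymes that work beside the members in amino acid breakdown were taken as 26 tested genes of 31 listed for valine, proline and lysine. With genistein limma called 1 lower, where 0.177% of genes were, namely Crym, a ketimine reductase of lysine breakdown that also binds thyroid hormone, at 1.94 ± 0.46 against 3.06 ± 0.35 (SD, n = 5, log2 difference -1.12 ± 0.21 SE, limma adjusted p = 0.0368). That call was kept in 3 of 15 fits that left out 1 array, those without control 5, genistein 4 or genistein 5, and in the other 12 the adjusted p lay between 0.0557 and 0.111. It was lost with the replicate block (limma adjusted p = 0.0891), without the filter on low values (0.0889) and with just the 10 arrays compared (0.169). The daidzein arrays of Crym, from 1.95 to 2.34, lay below all controls too, uncalled (log2 difference -0.92, limma adjusted p = 0.241; -0.93 without daidzein 5). Between the isoflavones 1 gene was called higher with genistein, where 0.0279% of genes were higher and 0.112% lower, namely Oat, the ornithine aminotransferase that makes the same proline intermediate that Aldh4a1 consumes. Oat stood at 6.37 ± 0.17 with genistein, 5.38 ± 0.26 with daidzein and 5.71 ± 0.36 in controls (SD, n = 5), with a log2 difference between the isoflavones of 0.99 ± 0.16 SE (limma adjusted p = 0.0328). This call was kept in 6 of 15 fits that left out 1 array, and in the other 9, among them that without daidzein 5 (0.0829), the adjusted p ran from 0.0512 to 0.108. Of the arrays compared, just daidzein 1 or genistein 4 could be left out with the call kept. The other kept fits left out control 1, 3, 4 or 5, which are outside this comparison. The call was also lost with the replicate block (limma adjusted p = 0.101), median centring (0.192), no filter on low values (0.0806) and just the 10 arrays compared (0.0646). Oat is enriched around the central vein, and the list of 7 measured pericentral markers, which includes it, had a mean of 4.24 to 4.56 in genistein, 3.96 to 4.14 in daidzein and 4.13 to 4.41 in control arrays. The part of this in the Oat difference was not tested. Aadat, an aminotransferase of lysine breakdown, had 0.40 between the isoflavones and Pcca, a propionyl-CoA carboxylase subunit, -0.32 with genistein against control, both uncalled. The list medians were 0.04 with genistein and -0.09 with daidzein, beside differences of at most 0.06 for Aldh4a1 itself.

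Around the betaine, carnitine and fatty aldehyde steps, 20 genes of 22 listed were tested and limma called 0 in all 3 comparisons, where 0.335%, 0.0279% and 0.14% of all genes were called with genistein, with daidzein and between them. At an unadjusted p under 0.05 there were 6, 4 and 4 in this order, or 30%, 20% and 20% of the list against 11.6%, 8.54% and 9.87% of all genes. The medians were -0.09 with genistein and -0.08 with daidzein. Tmlhe, the first enzyme of carnitine synthesis, had genistein arrays of 1.67 to 1.88, all below the control range of 1.92 to 2.08 (log2 difference -0.24, limma adjusted p = 0.243), while Aldh9a1 of the same pathway had -0.00. Dmgdh, which follows betaine in choline breakdown, stood at 2.36 ± 0.28 with daidzein, 2.93 ± 0.21 in controls and 3.10 ± 0.26 with genistein (SD, n = 5), with a log2 difference between the isoflavones of 0.75 (interval 0.42 to 1.07) and no overlap of their arrays (limma adjusted p = 0.0809). Pecr, a peroxisomal enoyl-CoA reductase, had -0.34 between the isoflavones (limma adjusted p = 0.103) and Sphk2, a sphingosine kinase upstream of fatty aldehyde release, -0.35 with genistein against control (adjusted p = 0.223).

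**Figure D5:**
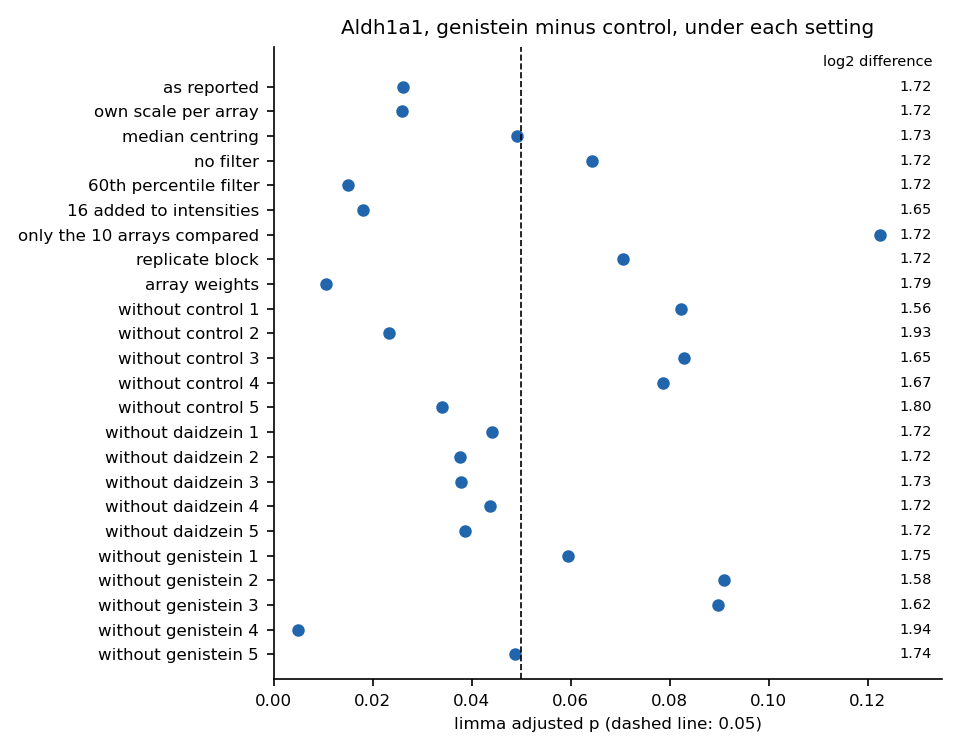
Limma adjusted p (x axis) of Aldh1a1 in genistein minus control under the reported setting and each alternative (y axis), with the log2 difference printed at the right and a dashed line at 0.05. The difference stays between 1.56 and 1.94 while the adjusted p lies between 0.00482 and 0.123, on both sides of the line.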

How the data were processed

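Liver RNA of 15 rats was measured on 1-channel arrays with biotin labelling, per the labels' protocols. The authors deposited 1 score per probe set and array, which behaves as a standardized log signal; background correction and summarisation are not stated in the labels. The scale was inferred: scaling each array by 1 factor made its commonest values evenly spaced on a linear scale, in 585 of 585 gaps within 0.01 of a step. Scores were multiplied by the mean factor, 2.60 log2 units per deposited unit (2.54 to 2.79 by array), so log2 differences rest on that inference.

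The 57 control probe sets were left out. After quantile normalization with limma 3.58.1 in R 4.3.3, the 18625 of 31042 probe sets whose mean reached the 40th percentile were tested, with 3 diets in 1 model over all 15 arrays (12 residual and 2.58 prior degrees of freedom) and Benjamini-Hochberg adjustment per comparison, called at 0.05. Symbols came from the array annotation, updated through Entrez IDs (20764 of 20832 with 1 symbol matched). A gene of a list was represented by its brightest probe set. All 9 members passed the filter on low values. The named genes were all members, called genes of each list and up to 4 of lowest p per list, and the 5 genes of highest r with Aldh1a1 over arrays and over residuals, leaving out predicted loci. The members and lists were chosen with earlier results of these data known. Aldh1a2 and Aldh1a3 were added as the other retinal dehydrogenases after their values were seen.

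On simulated data with known changes in 200 probe sets of 18625, the fit recovered 80 of 100 changes of 1 log2 unit and 98 of 100 of 2 for genistein against control, with 11 false calls. The noise was normal and independent between probe sets, with their real means and spreads, and was not normalized. Aldh1a1 varied more than 92.2% of probe sets, so these counts do not tell how often a change in it would be called. Replicate numbers of the titles did not pair arrays: 1 of 15 same-numbered pairs had a residual correlation over 0.1 (r from -0.163 to 0.109).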

Additional observations from a re-analysis of the deposited data

Results flagged for a closer look

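Aldh3a2 in genistein 2 stood at 5.91, apart from the other genistein arrays, which lay between 6.17 and 6.26; the gap to the nearest was 0.74 of the range of the 5 arrays. It was the 1 group that stood out so among 27 groups of 5 arrays checked, where chance gives about 1 in 20.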

How the results depend on the processing

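The Aldh1a1 difference between genistein and control kept its direction in all alternatives run. Its log2 value was 1.72, with the call lost, without the filter on low values (limma adjusted p = 0.0642), with just the 10 arrays compared (0.123) and with the replicate block (0.0706), so that 0 members were called there. These fits, and that with the 60th percentile filter, used the same normalized values as the reported fit. Their log2 value was therefore fixed, and just the call could change. Leaving out 1 array gave 1.56 to 1.94 and 0 to 1 members called. In the other 2 comparisons 0 members were called under all settings run. The replicate numbers, used as a block, were not borne out as pairs; the block took the probe sets called with genistein against control from 60 to 17 and between the isoflavones from 21 to 2.

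The background of calls moved far more. For genistein against control it was 34 with median centring, 14 without the filter, 124 at the 60th percentile filter, 140 with array weights and 0 with just the 10 arrays compared (limma; 1896 at an unadjusted p under 0.05), and 5 to 203 leaving out 1 array. For daidzein against control it was 3, or 7 at the stricter filter and 7 with array weights, and 2 to 8 leaving out 1 array. Between the isoflavones it was 9 with median centring, 3 without the filter, 67 at the stricter filter, 35 with 16 added to the intensities, 2 with just the 10 arrays compared and 74 with array weights, and 3 to 136 leaving out 1 array. Values on the deposited scale gave the same calls, with an Aldh1a1 difference of 0.66 deposited units. No other member crossed the threshold under any setting run, although uncalled differences near 0, such as that of Aldh4a1 with daidzein (-0.01 without daidzein 5), changed sign. The cause of the changes was not tested.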
